A study of Mus musculus with 8 samples.

Results

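Cells that carried the genes of type 1 conventional dendritic cells (cDC1) were taken from single-cell libraries of injured cortex of 8 mice, 6 days after photothrombosis (PT), a stroke made by lighting a photosensitive dye in the blood. Members were selected on their own counts of unique molecular identifiers (UMIs, 1 per captured RNA molecule): a droplet with at least 2000 UMIs and under 20% mitochondrial UMIs was a member when at least 2 of Xcr1, Clec9a, Cadm1 and Flt3 were detected, Xcr1 or Clec9a among them. Members also needed at least 20 UMIs per 10,000 of the MHC class II genes H2-Aa, H2-Ab1 and Cd74 together, under 1 per 10,000 of the microglial genes P2ry12, Tmem119 and Sall1, and under 3 per 10,000 of the maturation genes Ccr7, Fscn1 and Ccl22. This gate held 189 of 46216 droplets that passed the depth and mitochondrial limits.

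The 4 control mice received saline and the 4 ancrod mice 2.4 U ancrod per day, a venom enzyme that depletes fibrinogen, from minipumps implanted 2 days before PT. All 8 mice had PT of the right sensorimotor cortex with a light spot of 4 mm, and a square of about 5 mm that held the lesion and spared tissue was taken without meninges after perfusion, with no sorting of cells. The labels spell the genotype Bl/J6 and give female mice, whereas the study's methods name C57BL/6N mice of both sexes aged 8 to 12 weeks, and no sample was uninjured. Replicates 1 to 3 of each group were injured and sequenced in batch 1 and replicate 4 of each group in batch 2, so batch 2 held 1 mouse of each group.

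Dendritic cells take up antigen and present it to T cells. The type 1 lineage depends on the transcription factors Irf8 and Batf3, takes up dead cells with the receptor Clec9a, and is known for presenting their antigens on MHC class I to CD8 T cells. Its chemokine receptor Xcr1 binds Xcl1, which natural killer (NK) and T cells release, and its growth depends on Flt3 ligand. Xcr1 lies on chromosome 9 at positions 123681380 to 123691094 of the reverse strand and Clec9a on chromosome 6 at 129385825 to 129401726 of the forward strand (GRCm39), and both are protein coding.

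The gate did not hold 1 kind of cell, and the label was borne out by its markers for part of it only. Of the 189 members, 43 (22.8%) held at least 40 UMIs per 10,000 of 6 genes of plasmacytoid dendritic cells (Ccr9, Bst2, Tcf4, Ly6d, Runx2 and Cox6a2), a limit set after the values were seen. The highest member below the limit stood at 33.6 and the lowest above it at 44.2, and 3 members lay between 30 and 50. A wider gap lay higher, from 47.8 to 65.2, and the members at both of its ends had 0 Irf8 UMIs. These 43 plasmacytoid-like members entered through Clec9a, which 43 of 43 carried, and 0 of them had an Xcr1 UMI. Siglech, a receptor of plasmacytoid cells and microglia, had a median of 21.5 UMIs per 10,000 in them and of 0 in the other 146 members. Their median of Cst3, abundant in conventional dendritic cells, was 6.85 UMIs per 10,000 beside 96.1 in the others. Their median Irf8 was 22.2 UMIs per 10,000 beside 6.09, and Batf3 and Tlr3 were found in 0 of the 43, beside 109 and 110 of the 146.

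**Figure D1:**
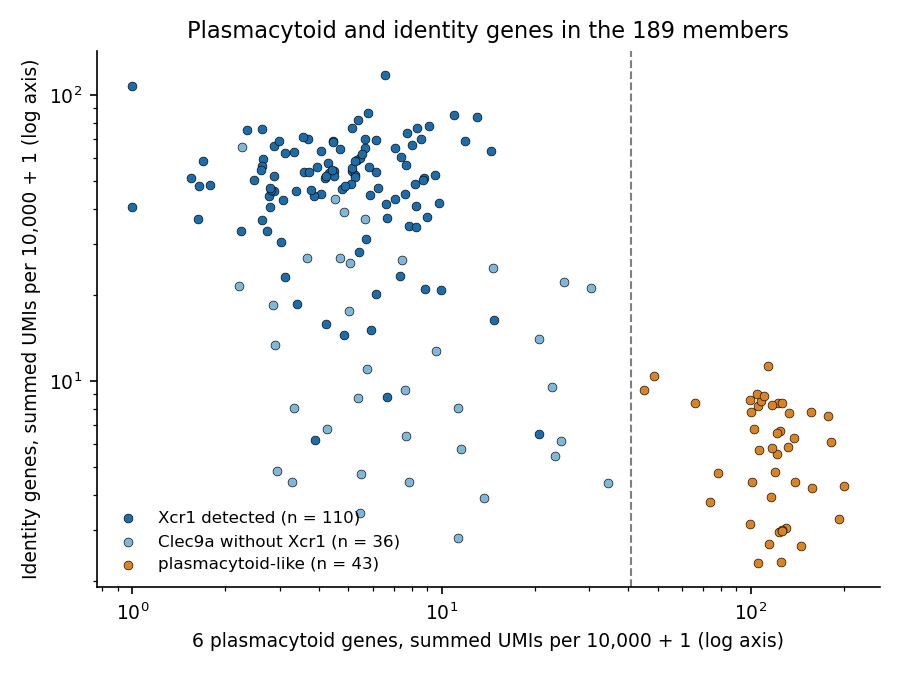
Each point is 1 of the 189 members, with the summed UMIs per 10,000 of 6 plasmacytoid genes on the x axis and of the identity genes on the y axis (1 added to both, log axes). The 43 plasmacytoid-like members stand right of the dashed limit of 40, and the 110 members with an Xcr1 UMI stand left of it, most of them at the top.

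The other 146 members fell into 110 with an Xcr1 UMI and 36 with Clec9a alone. Identity genes of cDC1 that the gate did not use were summed in each cell, without the more broadly expressed Irf8, Id2 and Zbtb46. The median member with Xcr1 had 51.1 UMIs per 10,000 of them and the median member with Clec9a alone 9.30. Naaa, a lysosomal amidase typical of cDC1, was found in 102 of the 110 and in 28 of the 36. Batf3 was found in 93 of the 110 and in 16 of the 36, and Snx22, a sorting nexin, in 86 and in 6. Sirpa, a receptor of type 2 dendritic cells (cDC2) and macrophages, was found in 20 of the 110 and in 25 of the 36. Irf8 was found in 103 of the 110 and in 20 of the 36. In a cDC2 gate, described below, Naaa was found in 63.1% of cells, Irf8 in 38.9%, Batf3 in 23.9% and Itgae in 33.4%. Of the 36, 77.8%, 55.6%, 44.4% and 25% carried these 4 genes. The cells with Xcr1 thus carried most of the identity genes, and those with Clec9a alone carried fewer of them. Since Xcr1 entered the rule, these values describe the gate and were not tested.

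The rule's markers were also looked for in cells and droplets that should lack them. In endothelial cells, which should lack both genes, Xcr1 was found in 12 of 7649 cells (0.157%) and Clec9a in 222 (2.90%) with median depths of 7892 to 19121 UMIs per mouse. Of the members 110 (58.2%) had Xcr1 and 175 (92.6%) Clec9a, with median depths of 15658.5 to 23605 UMIs per mouse, and since the rule asked for 1 of these genes, these shares cannot be read against that background. In droplets of at most 100 UMIs, Clec9a made up 0.00967 to 0.0339 UMIs per 10,000. The 36 members with Clec9a alone had a median of 0.687 Clec9a UMIs per 10,000, beside 3.38 in those with Xcr1, so their membership rests on few Clec9a UMIs, and the part of free RNA in it was not tested.

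Genes of other cells were summed in the members and in free RNA, the droplets of at most 100 UMIs. In the summed members of a mouse, the 8 macrophage genes, Apoe, Ms4a7 and Adgre1 among them, came to 4.33 to 11.5 UMIs per 10,000 in control and 3.96 to 14.4 in ancrod, all 8 detected, beside 248 to 508 in free RNA. The 8 microglial genes, Siglech among them, came to 6.15 to 17.7 in control and 6.37 to 13.7 in ancrod, beside 94.1 to 160 in free RNA. Without the 43 plasmacytoid-like cells they came to 4.24 to 15.6 and 2.66 to 12.2. Of the members, 8 held at least 10 UMIs per 10,000 of the complement genes C1qa, C1qb and C1qc. The 6 plasmacytoid genes came to 17.4 to 49.1 in control and 11.7 to 21.8 in ancrod, and without the 43 cells to 6.39 to 7.49 and 3.72 to 6.38, with Ly6d then at 0. The 5 monocyte genes, Ccr2 and Plac8 among them, came to 18.6 to 28.2 in control and 15.3 to 19.8 in ancrod, above the 0.783 to 2.27 of free RNA in every mouse, and the 5 cDC2 genes to 1.08 to 4.68 and 1.08 to 2.47. The B cell marker Cd79a, the neutrophil marker Ly6g and the oligodendrocyte marker Mog were at 0, and the sums of these 3 lists reached at most 0.0835, 0.252 and 1.49 per 10,000. The oligodendrocyte sum was 0.880 to 1.49 in control and 0.920 to 1.36 in ancrod, beside 0.446 to 1.03 in free RNA. Of the 5 T and NK genes all had a UMI, with a sum of at most 1.14 per 10,000. The 4 endothelial genes reached 11.7 in control replicate 3, the 3 astrocyte genes 12.9 in control replicate 1, and the 3 fibroblast genes 6.20 in 1 ancrod mouse. The 3 neuron genes reached at most 0.0504. Their part in the results below was not tested.

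The libraries held 97861434 to 122758649 UMIs in control and 126682918 to 142139441 in ancrod, so every ancrod library was deeper. Kept droplets had medians of 10653 to 14406 UMIs in control mice and 13930 to 17575 in ancrod mice. The members shared 0 barcodes among libraries, and the barcode of 1 member was also a kept droplet of another library. The limits were counted among droplets with an Xcr1 or Clec9a UMI. Droplets of the lowest depth were not read, so the count for depth is a lower bound. Of the limits so counted, the MHC class II limit alone left out the most droplets. These 216 had a median of 0 UMIs per 10,000 of its genes, so most lay far from the limit. The nearest stood at 18.5, with the lowest member at 23.9. Of the droplets failing 1 limit only, 35 failed on microglial genes, 15 on the maturation genes, 10 on the number of markers and 1 on depth. The nearest outside held 1.01 UMIs per 10,000 of microglial genes beside 0.990 inside, and 3.05 of the maturation genes beside 1.45 inside.

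The share of members differed widely among mice. In control mice 12, 14, 22 and 12 members made up 0.209%, 0.252%, 0.350% and 0.216% of kept droplets. In ancrod mice 36, 41, 43 and 9 members made up 0.609%, 0.694%, 0.696% and 0.177%. In batch 1 every ancrod mouse lay above every control mouse, whereas in batch 2 the ancrod mouse lay below the control mouse. The exact 95% binomial intervals, which cover counting error only, ran from 0.220% to 0.530% in the highest control mouse and from 0.427% to 0.842% in ancrod replicate 1. The means were 0.257% ± 0.0652 in control and 0.544% ± 0.248 in ancrod (SD, n = 4 each), and the difference of 0.287 percentage points did not pass a two-sided exact permutation test (p = 0.143, adjusted p = 0.286 over 4 comparisons). Within batch 1 the means were 0.270% and 0.666% (p = 0.1, exact, the smallest that 3 against 3 mice allow), and in batch 2 the values were 0.216% and 0.177%. With mice permuted within their batch, p was 0.1 (exact, with 0.05 the smallest possible).

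**Figure D2:**
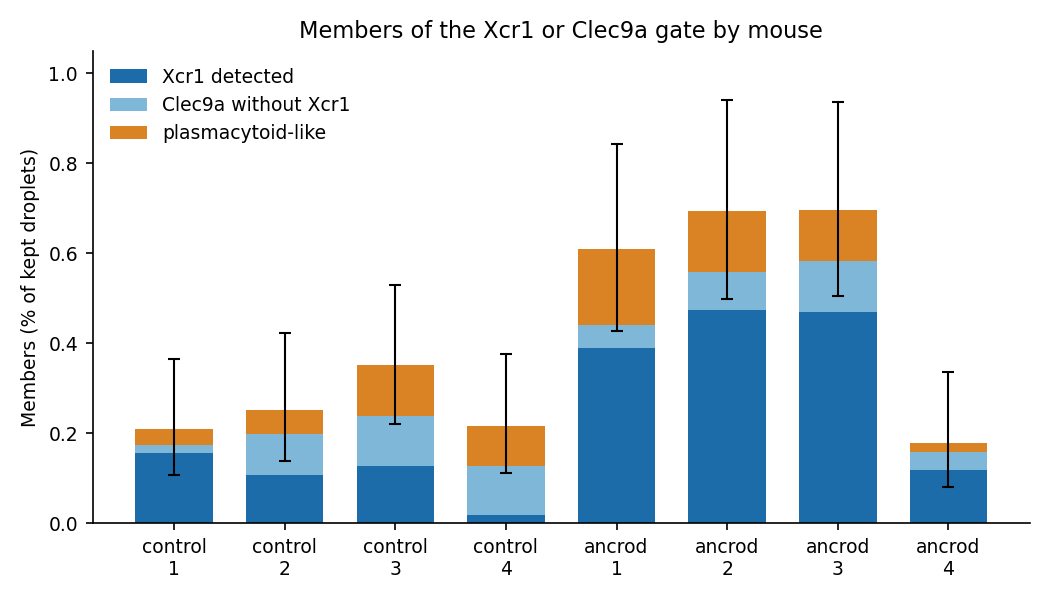
Bars give the members of each mouse as a percentage of kept droplets, split into members with an Xcr1 UMI, with Clec9a alone and plasmacytoid-like, with exact 95% binomial intervals of the whole bar. The 3 ancrod mice of batch 1 stand between 0.609% and 0.696%, and ancrod replicate 4 at 0.177% stands below every control mouse.

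The members with Xcr1 numbered 9, 6, 8 and 1 in control and 23, 28, 29 and 6 in ancrod. They made up 0.157%, 0.108%, 0.127% and 0.018% of kept droplets in control and 0.389%, 0.474%, 0.470% and 0.118% in ancrod, so that every ancrod mouse of batch 1 again lay above every control mouse. In batch 2 the order was the other way round than for all members, with the ancrod mouse above the control mouse of its batch and inside the control range. Their difference of 0.260 percentage points had an exact permutation p of 0.0857. Without the 43 plasmacytoid-like cells the shares were 0.174%, 0.198%, 0.239% and 0.126% in control and 0.440%, 0.558%, 0.583% and 0.157% in ancrod (difference 0.250 percentage points, p = 0.114, exact permutation), and the ancrod mouse was again the higher of the pair in batch 2. The plasmacytoid-like members numbered 2, 3, 7 and 5 in control and 10, 8, 7 and 1 in ancrod.

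Shares of kept droplets also move with the yield of other cells (endothelial cells numbered 1078 to 1381 in control mice and 457 to 931 in ancrod mice), so 2 narrower denominators were used. The study's methods report that reactive fibroblasts and macrophages trended higher with ancrod, and call easier dissociation the likely reason. The cDC2 gate held 44, 40, 61 and 25 cells in control and 60, 81, 58 and 29 in ancrod. The mature gate held 2, 2, 4 and 4, and 6, 11, 6 and 7. The part of dissociation in the shares was not tested. Of leukocytes (Ptprc detected) without microglial genes, members made up 2.44%, 2.26%, 2.21% and 2.16% in control and 2.89%, 4.32%, 4.73% and 1.48% in ancrod. The control mice lay close together, and the ancrod mice lay on both sides of them. The means of 2.27% ± 0.123 and 3.36% ± 1.48 (SD, n = 4 each) did not differ beyond the spread (p = 0.286, exact permutation; batch 1 means 2.30% and 3.98%, batch 2 values 2.16% and 1.48%). Of all dendritic cells, that is members, the cDC2 gate and the mature gate, members made up 20.7%, 25%, 25.3% and 29.3% in control and 35.3%, 30.8%, 40.2% and 20.0% in ancrod. The means were 25.1% ± 3.51 and 31.6% ± 8.61 (SD, n = 4 each; p = 0.200, exact permutation), with batch 1 means of 23.7% and 35.4% and batch 2 values of 29.3% and 20.0%. With gates drawn after each cell was thinned to 2000 UMIs, which evens out the deeper ancrod libraries, the shares of dendritic cells were 37.5%, 18.8%, 28.6% and 11.1% in control and 56.8%, 37.3%, 51.3% and 13.6% in ancrod, and the difference was 15.8 percentage points in place of 6.51 (p = 0.229, exact permutation). After thinning these shares rested on 9 of 24, 3 of 16, 6 of 21 and 2 of 18 cells in control. In ancrod they rested on 21 of 37, 22 of 59, 20 of 39 and 3 of 22. For the leukocyte and dendritic cell shares before thinning, both adjusted p-values were 0.286. Among members with Xcr1 the differences were 1.30 percentage points of leukocytes and 12.9 of dendritic cells (p = 0.0571 each, exact permutation), the dendritic cell value being over 1.5 times that of all members. Members without Xcr1 were left out of this count of dendritic cells, so its denominator was smaller than that for all members. In batch 2 members with Xcr1 made up 0.180% of leukocytes in the control mouse and 0.989% in the ancrod mouse, and 3.33% and 14.3% of dendritic cells counted in this way, on 1 and 6 cells.

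Dividing members were found in 5 of the 8 mice. A cell was counted as dividing when 2 or more of the division genes Ccnb2, Cdk1, Cenpf, Mki67 and Top2a had a UMI after every cell was thinned to 2000 UMIs. By this rule 18 of 189 members were dividing, 15 of them among the 110 with Xcr1 and 0 among the 43 plasmacytoid-like members. In control mice the dividing members were 1 of 12, 0 of 14, 1 of 22 and 0 of 12. In ancrod mice they were 5 of 36, 3 of 41, 8 of 43 and 0 of 9. Among members with Xcr1 they were 1 of 9, 0 of 6, 1 of 8 and 0 of 1 in control and 4 of 23, 2 of 28, 7 of 29 and 0 of 6 in ancrod. The shares averaged 3.22% ± 4.03 in control and 9.95% ± 8.09 in ancrod (SD, n = 4 each), with batch 1 means of 4.29% and 13.3% and both batch 2 mice at 0, and did not differ beyond the spread (p = 0.257, adjusted p = 0.286, exact permutation). Without thinning the shares were 33.3%, 7.14%, 9.09% and 8.33% in control and 27.8%, 14.6%, 37.2% and 11.1% in ancrod.

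In the cDC2 gate of the same libraries, 9 of 44, 7 of 40, 4 of 61 and 5 of 25 control cells and 6 of 60, 2 of 81, 8 of 58 and 4 of 29 ancrod cells were dividing. Over the 8 mice the share averaged 6.59% ± 6.92 (SD) in members and 13.1% ± 6.41 in cDC2, and members were lower in 5 of 8 mice. Members minus cDC2 averaged -6.48 percentage points (SD of the difference 10.5), which did not pass a two-sided exact permutation test by sign flips within mouse (p = 0.125, n = 8). All 4 control mice had the lower share in members, whereas 3 of the 4 ancrod mice had the higher share in members. Without the plasmacytoid-like cells control replicate 3 had 6.67% in both kinds, on 1 of 15 members and 4 of 60 cDC2. Its members with Xcr1 had 12.5%, on 1 of 8 cells, above the 6.56% of its cDC2 gate.

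**Figure D3:**
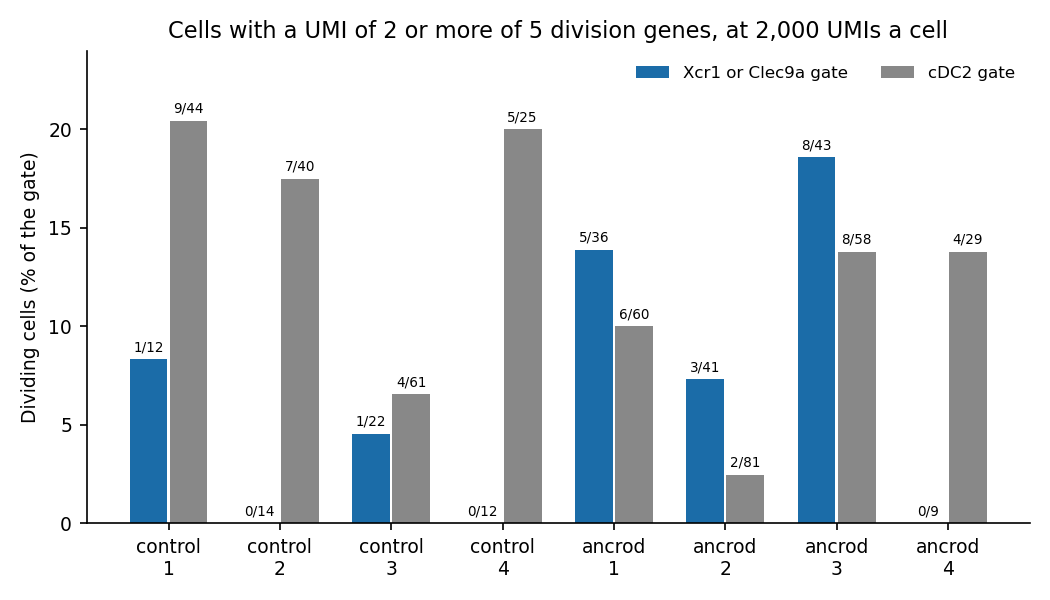
Bars give the share of dividing cells in the Xcr1 or Clec9a gate and in the cDC2 gate of each mouse, at 2000 UMIs a cell, with the number of dividing cells over the number of cells above each bar. Members reach 18.6% in ancrod replicate 3 and are at 0 in 3 mice.

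Gene levels in the members were then compared between ancrod and control, with UMIs summed over the members of each mouse and tested with edgeR (quasi-likelihood, p-values adjusted by Benjamini-Hochberg). Of 5520 genes tested, 0 passed an adjusted p of 0.05 (0.0% of all genes), 384 had an unadjusted p under 0.05 (6.96%), and 0 passed with DESeq2. Without the plasmacytoid-like members 0 of 4674 passed, with 281 at an unadjusted p under 0.05 (6.01%). The kinds of member made up different parts of these sums: pooled over mice, 24 of 60 control members (40%) and 86 of 129 ancrod members (66.7%) had Xcr1, and without the plasmacytoid-like cells 24 of 43 (55.8%) and 86 of 103 (83.5%), with 1 of 7 in control replicate 4. By mouse, members with Xcr1 were 9 of 12, 6 of 14, 8 of 22 and 1 of 12 in control. In ancrod they were 23 of 36, 28 of 41, 29 of 43 and 6 of 9. Control replicate 1 thus had the largest part of all 8 mice and control replicate 4 the smallest. The comparison was therefore also made among members with Xcr1 alone, an alternative chosen after seeing the data that leaves out control replicate 4, with 1 such cell. There 0 of 3911 genes passed (0.0%), and 195 had an unadjusted p under 0.05 (4.99%). Fewer cells of a kind and less RNA per cell cannot be told apart in such sums.

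The genes with the smallest p in each direction did not pass (adjusted p 0.516 to 0.550) and are given as values. Among them Tmpo, a protein of the inner nuclear membrane, had 120, 121, 99.1 and 81.5 CPM (counts scaled to the normalized total of each sum) in control and 249, 177, 259 and 171 in ancrod (log2 difference 1.03 ± 0.21 SE). Atad2, an ATPase that binds acetylated histones, had 52.0, 74.3, 50.6 and 56.0 CPM in control and 187, 87.2, 155 and 108 in ancrod (1.23 ± 0.28). These ranges did not overlap, nor did those of Epb41, Wnk1 and Dtl. Genes picked for the smallest p tend to have separate ranges, so this and the like below lend them no support. The share of all genes with separate ranges is not given. On the other side Dnajc1, a co-chaperone of the endoplasmic reticulum, had 228, 297, 239 and 219 CPM in control and 146, 129, 141 and 108 in ancrod (-0.89 ± 0.17). Lrp8, a receptor of reelin, had 64.0, 92.9, 76.8 and 96.7 CPM in control and 45.5, 28.3, 27.5 and 34.2 in ancrod (-1.28 ± 0.25). The ranges of Gpr141 and Tex2 did not overlap either, while those of Slc2a1, the glucose transporter, did, and those of Tex2 overlapped without the plasmacytoid-like members.

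Of 14 division genes, 11 were tested, 0 passed, and 5 had an unadjusted p under 0.05, beside 6.96% of all genes. Without the plasmacytoid-like members 2 of 10 did, beside 6.01% of all genes. Their median log2 difference was 1.08 with ancrod, beside -0.01 over all 5520 genes, and 0.76 without the plasmacytoid-like members. Among members with Xcr1 alone it was 0.80, with 3 of 11 genes at an unadjusted p under 0.05. Mki67, a marker of cycling cells, had 56.0, 40.3, 40.4 and 0 CPM in control and 164, 87.2, 248 and 11.4 in ancrod (1.93 ± 0.64, adjusted p = 0.627 by edgeR's quasi-likelihood test). Top2a, which untangles DNA, had 96.0, 115, 70.8 and 10.2 CPM in control and 258, 114, 330 and 22.8 in ancrod (1.35 ± 0.59). Both batch 2 mice were low, and the groups overlapped for both genes.

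Of the 21 identity genes, 19 were tested and 0 passed, with a median log2 difference of 0.37 (0.29 without the plasmacytoid-like members). Among members with Xcr1 alone the median was -0.05 over 18 genes. Irf8 had 1372, 750, 819 and 1207 CPM in control and 1249, 820, 1026 and 1085 in ancrod, which covered the same range (0.02 ± 0.21). Batf3 had 88.0, 108, 60.7 and 71.3 CPM in control and 88.7, 71.3, 86.6 and 51.4 in ancrod (-0.07 ± 0.24). Tlr3, a sensor of double-stranded RNA, had 212, 74.3, 72.8 and 30.6 CPM in control and 182, 143, 193 and 148 in ancrod (0.79 ± 0.39), and its log2 difference was 0.21 ± 0.26 among members with Xcr1. In the other lists 0 genes passed either, with median log2 differences of -0.08 for MHC class I (19 of 20 genes tested), -0.04 for MHC class II (10 of 10), -0.01 for co-stimulation (9 of 18), 0.09 for chemokines and receptors (10 of 13), -0.19 for innate receptors (9 of 18), -0.13 for cytokine receptors (11 of 13) and -0.09 for interferon response (8 of 15). Without the plasmacytoid-like members these medians were, in the same order, -0.06, -0.18, 0.04, -0.04, -0.30, -0.16 and 0.12. The sign thus turned for co-stimulation, chemokines and interferon response.

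Beside the cDC2 gate of the same mouse, the members were read for what they carried beyond the rule. Both gates were selected on UMIs of the same cells, so genes that go along with Xcr1 or Clec9a had to differ, and the counts below describe the cells and support nothing about the gate. In a fit with the mouse as a block over 8 mice, without the genes of either gate, 980 of 9193 genes were higher (10.7%) and 986 lower (10.7%) in the members at an adjusted p under 0.05 by edgeR. Without the plasmacytoid-like cells, 743 of 8846 were higher (8.4%) and 828 lower (9.36%). With all members, the 8 largest passing rises were P3h2, Grm8, Lrrc1, Ly6d, Cmah, Cd36, Cacna1e and Tmem163. Ly6d belongs to the plasmacytoid genes that chose the 43 cells, and Cacna1e and Tmem163 lost their call among members with both Xcr1 and Clec9a. The values that follow leave plasmacytoid-like cells out of both gates.

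The identity genes stood higher throughout. Of 21 genes, 19 were tested, 18 were higher and Plet1 did not pass, with a median log2 difference of 3.10 beside -0.01 over all genes, and with all members 19 of 20 were higher (median 2.86). Irf8 ranged from 412 to 1108 CPM in members (median 754) and from 17.6 to 64.1 in cDC2 (median 35.9), so the kinds did not overlap (log2 difference 4.29 ± 0.25 SE). Batf3 ranged from 51.5 to 125 CPM (median 89.1) and from 13.7 to 25.1 (median 17.9; 2.26 ± 0.16). Naaa ranged from 284 to 825 CPM (median 605) and from 62.8 to 140 (median 75.3; 2.84 ± 0.19). Wdfy4, needed for cross-presentation of cell-bound antigen, ranged from 660 to 1637 CPM (median 1166) and from 250 to 476 (median 345; 1.65 ± 0.12). All 4 genes were higher in members in 8 of 8 mice. Gcsam, a signalling protein of lymphocytes, had 191 UMIs in members and 0 in cDC2, at least 138-fold higher when 3 counts are allowed over the cDC2 cells.

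Of the 9 Toll-like receptors in the lists, Tlr9 was not tested, 3 were higher, 2 were lower and 3 did not pass. Tlr3 ranged from 39.6 to 224 CPM in members (median 157) and from 1.95 to 10.4 in cDC2 (median 6.69; 4.42 ± 0.32). Tlr11, a mouse receptor for profilin of parasites, had 49 UMIs in members and 3 in cDC2, and its partner Tlr12 49 and 4. Tlr2, a receptor for bacterial lipoproteins, ranged from 4.01 to 53.4 CPM in members (median 25.3) and from 74.4 to 151 in cDC2 (median 140; -2.35 ± 0.30), and Tlr4 was lower as well (-2.09 ± 0.63). Tlr1, Tlr13 and Tlr7 did not pass (-0.63 ± 0.56, -0.65 ± 0.32 and -0.59 ± 0.82), whereas with all members Tlr7, a sensor of single-stranded RNA that plasmacytoid cells carry, was higher (1.98 ± 0.45). Of the 18 innate receptors and uptake genes, 17 were tested, 4 were higher and 4 lower (23.5% each, beside 8.4% and 9.36% of all genes). Havcr2, which binds phosphatidylserine, and Clec12a, a lectin that senses uric acid crystals, were higher by 0.99 ± 0.11 and 1.24 ± 0.15. Axl and Clec7a were lower by log2 differences of -1.47 ± 0.33 and -1.43 ± 0.36.

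The promoters of the identity genes were searched for the core of the interferon-stimulated response element, read as GAAA, 2 bases of any kind and GAAA again, on both strands, because factors of the Irf8 family bind such sites; the motif was chosen after the gene values were seen. Promoters are from RefSeq (GRCm38.p6, another build than that of the counts) and run from 250 bases before to 50 bases after the start. Of the 21 genes 18 had a promoter there, and 3 held the motif (16.7%), beside 1079 of 27025 genes (3.99%), or 1131 of 32851 promoters (3.44%). A match is a run of letters, not a shown binding site. The 3 promoters are printed 5′ to 3′ along the gene's strand, with the motif in capitals, since they belong to genes far higher in members than in cDC2. Gpr141b, an orphan receptor with 114 UMIs in members and 2 in cDC2, has it at position -12 from its start (chr13:19732902-19733201, reverse strand). Ifi205, of the interferon-inducible p200 family, with 119 to 359 CPM in members and 3.90 to 27.7 in cDC2 (3.89 ± 0.27), has 2 matches, at positions -134 and 23 (chr1:174031706-174032005, reverse strand). Tlr11 has 1 at position -122 (chr14:50357664-50357963, forward strand).
Gpr141b: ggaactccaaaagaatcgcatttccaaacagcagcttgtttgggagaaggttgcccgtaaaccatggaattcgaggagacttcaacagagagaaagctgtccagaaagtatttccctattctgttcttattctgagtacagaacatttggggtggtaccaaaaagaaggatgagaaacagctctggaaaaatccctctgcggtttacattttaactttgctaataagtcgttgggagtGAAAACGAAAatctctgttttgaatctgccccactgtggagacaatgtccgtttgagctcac
Ifi205: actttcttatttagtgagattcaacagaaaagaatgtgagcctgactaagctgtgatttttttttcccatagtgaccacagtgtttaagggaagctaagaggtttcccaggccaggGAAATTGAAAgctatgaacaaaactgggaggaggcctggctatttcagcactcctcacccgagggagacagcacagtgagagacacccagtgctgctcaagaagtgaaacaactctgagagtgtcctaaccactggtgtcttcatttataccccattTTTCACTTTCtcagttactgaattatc
Tlr11: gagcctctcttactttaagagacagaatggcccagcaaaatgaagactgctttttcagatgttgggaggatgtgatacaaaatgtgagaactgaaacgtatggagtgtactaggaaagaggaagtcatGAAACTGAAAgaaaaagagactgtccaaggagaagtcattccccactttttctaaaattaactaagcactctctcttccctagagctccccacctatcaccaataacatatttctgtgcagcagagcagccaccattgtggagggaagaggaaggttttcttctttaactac

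Genes of MHC class I presentation leaned up and those of class II down. Of 20 class I genes, all were tested, 8 were higher (40%, beside 8.4% of all genes) and 2 lower (10%, beside 9.36%), with a median log2 difference of 0.33. The lower share was thus near that of all genes. The peptide transporter Tap2 ranged from 85.8 to 157 CPM in members (median 131) and from 49.6 to 79.7 in cDC2 (median 67.5; 0.98 ± 0.17), without overlap. The immunoproteasome genes Psmb8 and Psmb9 were higher by 0.59 ± 0.11 and 1.13 ± 0.17, the proteasome activator Psme1 by 0.96 ± 0.12, and Rab43, known in cross-presentation, by 1.65 ± 0.22. The class I chain H2-D1 was lower (-0.30 ± 0.08), H2-K1 did not pass (-0.10 ± 0.13), and Cybb, the NADPH oxidase chain that slows antigen breakdown, was lower by -1.92 ± 0.40, with 8.02 to 390 CPM in members and 351 to 506 in cDC2. Of 10 class II genes outside the gate, 0 were higher and 5 lower (50%, beside 9.36% of all genes; median -0.46), and with all members 6 were lower. H2-Eb1 ranged from 4519 to 8820 CPM in members and from 8035 to 11559 in cDC2 (-0.52 ± 0.09). Ifi30, a lysosomal thiol reductase, ranged from 430 to 1182 CPM and from 1222 to 1772 (-1.07 ± 0.15), and Ctss, a protease of the invariant chain, was lower by -0.87 ± 0.16. H2-DMa, H2-Ob and Ciita did not pass.

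**Figure D4:**
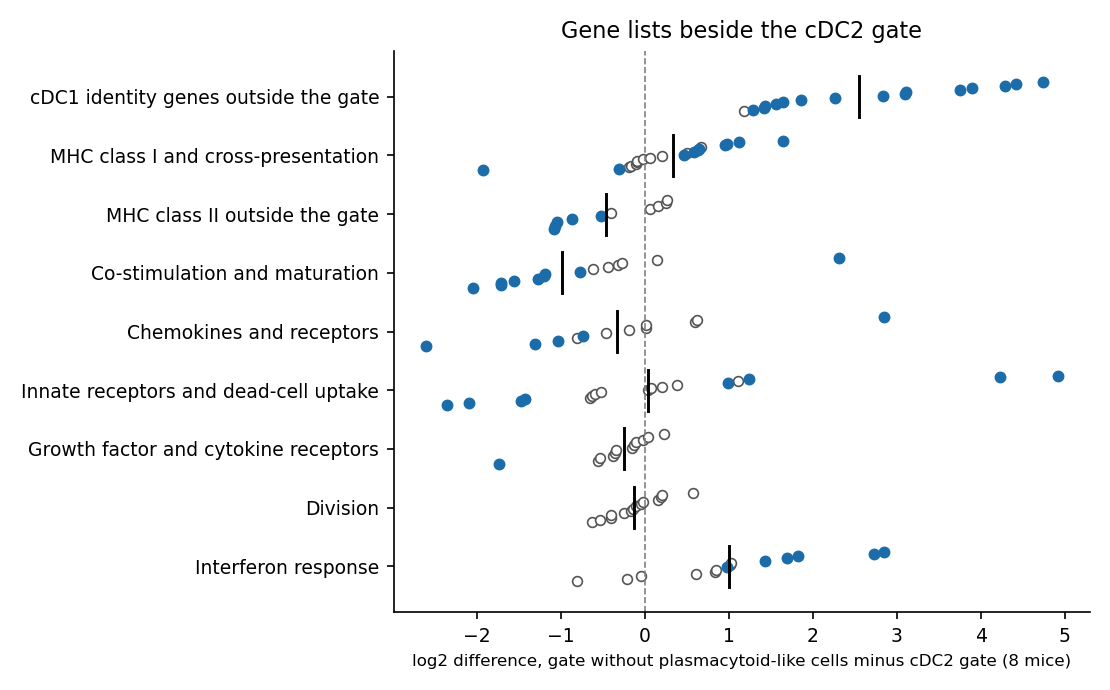
Each point is a gene of a fixed list at its log2 difference between the members without plasmacytoid-like cells and the cDC2 gate over 8 mice, filled where the adjusted p is under 0.05, and bars mark medians of the points drawn; 5 genes with at most 3 UMIs in cDC2 are left out. Identity genes lie to the right, class II genes reach at most 0.27, and 0 division genes are filled.

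Genes of co-stimulation and maturation were mostly lower in members: of 15 tested of 18, 1 was higher, 8 were lower and 6 did not pass (median -0.77). The higher share was 6.67%, beside 8.4% of all genes, and the lower share 53.3%, beside 9.36%. Relb, a NF-kB subunit of maturing dendritic cells, ranged from 21.4 to 63.9 CPM in members and from 76.1 to 138 in cDC2 (-1.26 ± 0.16), without overlap. Cd80, a ligand of Cd28, and Cd274, the checkpoint ligand PD-L1, were lower by -1.71 ± 0.24 and -1.56 ± 0.31, in 8 of 8 mice each. Il15, a cytokine for NK and CD8 T cells, was higher (2.31 ± 0.71) on 51 UMIs in members and 19 in cDC2, and it did not pass with all members (adjusted p = 0.0532 by edgeR's quasi-likelihood test). Il12b, the p40 chain of IL-12, had 74 UMIs in members, all from ancrod replicates 1 and 3, and 3 in cDC2, and did not pass.

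Of 13 chemokine genes and receptors, 2 were higher (15.4%, beside 8.4% of all genes) and 4 lower (30.8%, beside 9.36%), and with all members 3 were higher and 5 lower. Cxcr3, the receptor of Cxcl9 and Cxcl10, had 128 UMIs in members and 1 in cDC2. Cxcl9 was higher (2.85 ± 0.71) on 62 UMIs in members and 22 in cDC2. Ccr1 ranged from 2.67 to 125 CPM in members and from 165 to 283 in cDC2 (-2.61 ± 0.39), and Cx3cr1 and Cxcr4 were among the others that were lower. Of 15 interferon response genes, 14 were tested, 6 were higher (42.9%, beside 8.4% of all genes) and 0 lower (median 1.00, beside -0.01 over all genes). Among them were Mx1 (2.73 ± 0.38), Cxcl9, Irf7 (1.82 ± 0.39), Ifit2 and Stat2, and the ranges of each of these overlapped between the kinds. Isg15, with 39.6 to 323 CPM in members, did not pass. Of 12 growth factor and cytokine receptor genes tested of 13, only Csf1r, the receptor of macrophage growth factors, passed, and it was lower (-1.73 ± 0.33), a share of 8.33% beside 9.36% of all genes, while with all members 1 was higher and 5 lower. Csf2rb, shared by the receptors of GM-CSF and IL-3, did not pass (0.04 ± 0.17). All 14 division genes were tested, and 0 passed in either direction (median -0.12).

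Over all genes, the 8 largest rises at a mean of at least 50 CPM, in the same direction in 8 of 8 mice, were P3h2, Clnk, Lrrc1, Cd36, Snx22, Agpat3, Plpp1 and Tlr3. P3h2, a collagen prolyl hydroxylase, ranged from 13.2 to 445 CPM in members (median 234) and from 0 to 1.95 in cDC2 (8.53 ± 0.41), resting on 4 UMIs in cDC2. Clnk, an adaptor of immune receptor signalling, ranged from 17.1 to 93.1 CPM and from 0 to 3.47 (5.73 ± 0.46). Cd36, a scavenger receptor for lipids and dying cells, ranged from 6.60 to 129 CPM (median 93.2) and from 0 to 11.7 (4.92 ± 0.38), with control replicate 4 of the members inside the cDC2 range. The 8 largest falls were Mmp12, Arhgap24, Hilpda, Clec4n, S100a4, Cd33, Nav2 and Irf4. Irf4, a transcription factor of the cDC2 lineage, ranged from 0 to 34.3 CPM in members (median 11.4) and from 47.3 to 111 in cDC2 (median 68.0; -2.78 ± 0.34). S100a4, a calcium-binding protein, ranged from 0 to 541 CPM in members (median 244) and from 1148 to 1799 in cDC2 (median 1280; -2.86 ± 0.43). Mmp12, a macrophage elastase, ranged from 0 to 26.3 CPM and from 9.34 to 312 (-3.71 ± 0.46), and its ranges were the only ones of these 8 to overlap.

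**Figure D5:**
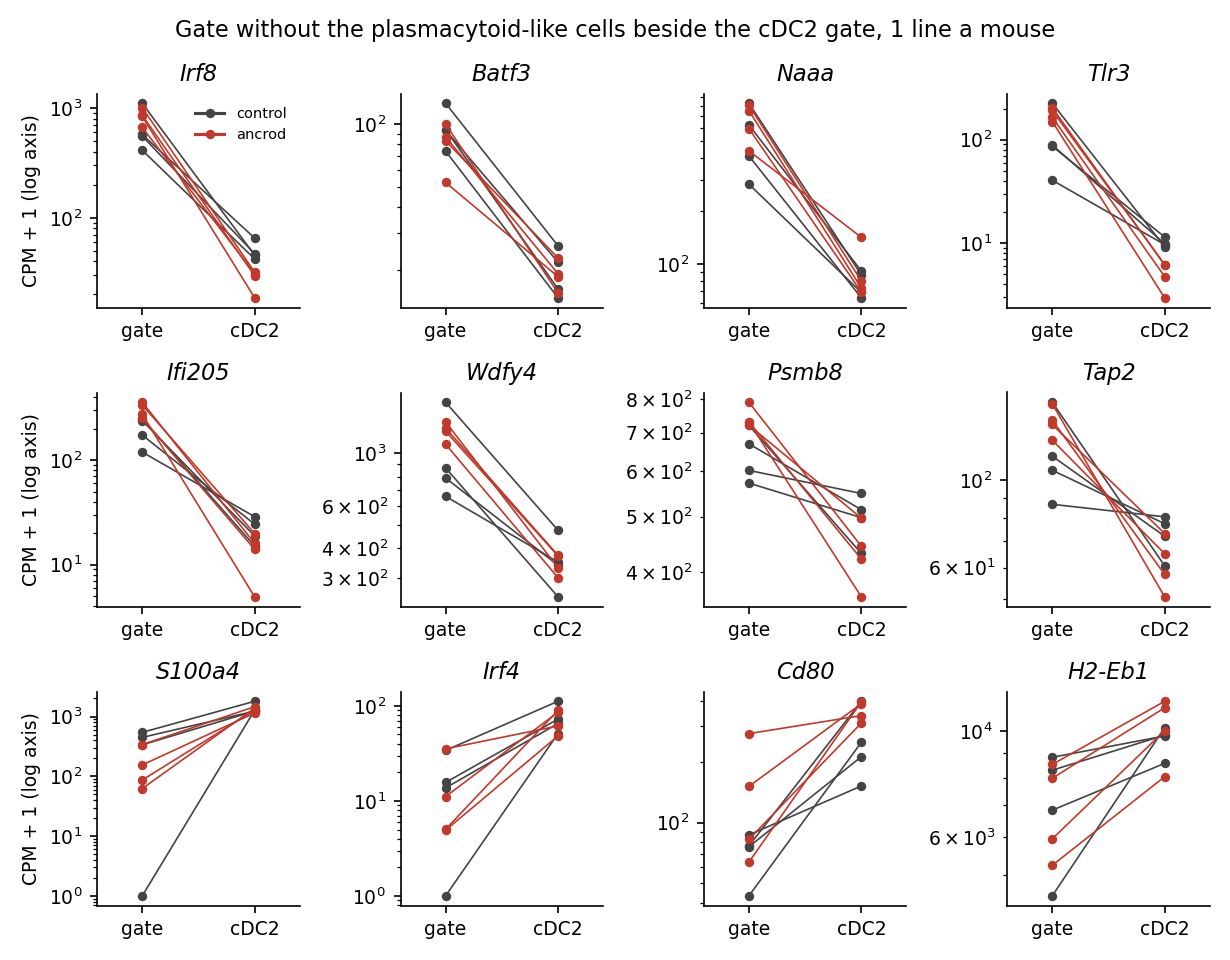
Each line joins the 2 values of 1 mouse, the members without plasmacytoid-like cells (gate) and the cDC2 gate, in CPM plus 1 on log axes that differ among panels. Irf8, Batf3, Naaa, Tlr3, Ifi205, Wdfy4, Psmb8 and Tap2 are higher in members in 8 of 8 mice, and S100a4, Irf4, Cd80 and H2-Eb1 lower in 8 of 8.

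Mature dendritic cells, chosen by Ccr7, Fscn1 and Ccl22, had at least 5 cells in the 4 ancrod mice only (6, 11, 6 and 7 cells), so this comparison says nothing of control mice. The members differed there in 558 genes that were higher (15.3% of 3652) and 580 that were lower (15.9%), and without plasmacytoid-like cells in 507 of 3492 (14.5%) and 548 (15.7%). Without ancrod replicate 2, which held 11 of the mature cells, 738 genes passed in place of 1138. The values again leave plasmacytoid-like cells out and are descriptive. The integrin chain Itgae had 323, 351, 274 and 279 CPM in members and 0 UMIs in mature cells, at least 38.3-fold higher when 3 counts are allowed over the mature cells, and the small GTPase Rab7b likewise at least 38.4-fold. Anxa1, an anti-inflammatory annexin, and St3gal5, a ganglioside synthase, were at least 21.2-fold and 27.9-fold higher. On the other side Syn3, a synapsin, had 0 UMIs in members and 235, 394, 441 and 193 CPM in mature cells, at least 249-fold lower in members, and Slco5a1, a transporter, at least 207-fold lower.

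Of 18 co-stimulation and maturation genes, 16 were tested, 0 were higher and 12 lower (median -2.92, beside 0.09 over all genes). Relb had 44.3, 66.2, 43.0 and 50.7 CPM in members and 1150, 1118, 1465 and 906 in mature cells (-4.52 ± 0.30). Cd274 had 22.1, 90.5, 33.9 and 25.4 CPM and 418, 715, 739 and 770 (-4.00 ± 0.35). The class I genes H2-K1 and B2m were lower in members too (-1.68 ± 0.21 and -1.53 ± 0.19), among 7 lower and 2 higher of 17 tested. Of 10 class II genes, 4 were higher and 2 lower, and Ciita, the class II transactivator, had 152, 163, 159 and 146 CPM in members and 105, 36.7, 13.0 and 22.7 in mature cells (1.91 ± 0.48). Of 15 identity genes, 10 were higher and 4 lower: Batf3, Id2, Zbtb46 and Ly75 were lower in members, and Irf8 did not pass (0.73 ± 0.31). Wdfy4 had 1495, 1283, 1429 and 1211 CPM in members and 65.3, 27.5, 0 and 170 in mature cells (4.51 ± 0.54). Of 9 division genes tested of 14, 8 were higher and 0 lower (median 3.45, and 3.16 with the 2 genes at 0 UMIs in mature cells set at their bound), while with all members 5 of 8 tested were higher. Ccr2, a receptor that draws cells from the blood, was higher (4.06 ± 0.57) among 4 higher and 2 lower of 7 chemokine genes tested. Of 5 innate genes tested 3 were higher and 1 lower, of 10 cytokine receptor genes 1 was higher, and of 10 interferon genes 3 were lower, beside 14.5% of all genes higher and 15.7% lower. The cytokine receptor share of 10% lay under that of all genes.

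Ligands of the members' receptors were found in other lymphoid cells of the same libraries. Xcl1, the ligand of Xcr1, had a UMI in 148 of 228 NK cells (64.9%) and in 207 of 502 T cells (41.2%), beside 17 of 7649 endothelial cells (0.222%) and 2 of 189 members. Flt3l, the ligand of Flt3, was found in 59 NK cells (25.9%) and 138 T cells (27.5%), in 1152 endothelial cells (15.1%) and in 16 members (8.47%). Ifng was found in 79 NK cells (34.6%) and 161 T cells (32.1%), beside 4 endothelial cells (0.0523%). Csf2, which encodes GM-CSF, was found in 13 T cells (2.59%), in 4 NK cells (1.75%) and in 0 of 7649 endothelial cells, which allows a share of up to 0.0392% of cells with a UMI. It was found in 0 of 189 members, which allows a share of members with a UMI of up to 1.59% and sets no limit on expression. NK cells numbered 20, 18, 40 and 35 in control mice and 39, 30, 35 and 11 in ancrod mice.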

How the data were processed

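Cortical lesion tissue of 8 mice was sequenced with 10x 3′ v3.1 chemistry, 1 library per mouse, without sorting. Per the labels, the authors used Cell Ranger 7.1.0, which aligns with STAR, with GRCm39, and deposited unfiltered UMI counts for 21848 genes, with no normalization. From these counts droplets were kept at 2000 UMIs or more and under 20% mitochondrial UMIs (13 genes), and members, the cDC2 gate and the mature gate were taken by fixed marker rules. The members and gene lists were chosen with earlier results of these data known. The cDC2 gate needed no Xcr1 or Clec9a UMI and at least 2 of Cd209a, Clec10a, Flt3, Mgl2 and Zbtb46, Cd209a or Flt3 among them. It shared the members' MHC class II, microglial and maturation limits. It also needed under 10 UMIs per 10,000 of C1qa, C1qb and C1qc, a limit that members did not have. The mature gate needed at least 2 of Ccr7, Fscn1 and Ccl22, at least 10 UMIs per 10,000 of them, and the same MHC class II and microglial limits. Doublets were kept in the main values: simulated-doublet scores marked 8 members, which an alternative left out. Shares were compared over mice with exact permutation tests in scipy 1.17.1 (70 arrangements, smallest p 0.0286). UMIs summed per mouse, for mice with at least 5 cells, were tested with edgeR 4.0.16 (filterByExpr, TMM, quasi-likelihood), and DESeq2 1.42.0 was an alternative. Named genes were those of the fixed lists, the 5 smallest p in each direction for ancrod against control (as under 5 genes passed), and the 8 largest passing differences with at least 50 CPM in the higher kind and 1 direction in every mouse. Mice are separate animals. The steps were tested on simulated data. A few genes of the lists are counted but not reported here by name.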

Additional observations from a re-analysis of the deposited data

Results flagged for a closer look

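The share of members among kept droplets of the ancrod group had 1 mouse far from the others. Ancrod replicate 4, the batch 2 mouse, stood at 0.177%, beside 0.609% to 0.696% in the other 3, and its gap to the nearest of them was 0.831 of the whole range, above Dixon's 95% limit for 4 samples. It was the only one of 44 groups examined to pass, and about 1 in 20 groups pass by chance. The batch and the mouse cannot be told apart, since batch 2 holds 1 mouse of each group.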

How the results depend on the processing

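All share and division differences kept their direction and stayed above p = 0.05 under every alternative run, with exact permutation p from 0.0571 to 0.571. For the comparisons of ancrod with control, many of these runs could not fall under 0.05. The smallest possible p was 0.0571 without a mouse, 0.1 in batch 1 alone, 0.125 with the replicate block and 0.05 within batch. Their p-values thus say nothing of stability. Leaving out each mouse in turn gave differences of 0.237 to 0.410 percentage points for the share of kept droplets, 0.631 to 1.71 for the share of leukocytes, 3.64 to 10.4 for the share of dendritic cells, 3.85 to 10.0 for the dividing share and -8.10 to -4.55 for members minus cDC2. Without ancrod replicate 4 the first of these reached 0.410 percentage points at p = 0.0571 (exact), the smallest p that 3 against 4 mice allow. Gene deviations of same-numbered mice correlated at 0.034, -0.028, -0.033 and 0.123, and only the pair numbered 4, the mice of batch 2, correlated best with its own number. On sums of 9 to 43 cells a mouse, low values cannot show whether the replicate numbers pair the mice. With the replicate block, exact sign flips within same-numbered pairs gave p = 0.250, 0.375, 0.375 and 0.250 for the shares of kept droplets, leukocytes and dendritic cells and the dividing share (smallest p 0.125), and edgeR called 0 genes. The count of genes between ancrod and control stayed at 0 without each mouse and in the other alternatives but 1: without the plasmacytoid-like members DESeq2 called 1 gene, Igf1r, lower with ancrod, with 480 CPM in control replicate 3 beside 46.7 to 88.9 in the other control mice; the cause was not tested. The difference in the share of dendritic cells was 15.8 percentage points with gates drawn after thinning, in place of 6.51, on 2 to 22 members a mouse. Calls against cDC2 ran from 1538 to 1978 without each mouse, and against mature cells from 738 to 1177. Leaving out plasmacytoid-like, Xcr1-free or C1q-rich members, batch 1 alone, permuting within batch and the bias-adjusted quasi-likelihood fit were chosen after seeing the data. The number of members, 9 to 43 cells a mouse, limits the precision of their values.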

Other observations

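The difference in dividing share between members and cDC2 averaged -12.9 percentage points in control mice and -0.0605 in ancrod mice. A comparison of these differences between the groups, chosen after the values were seen, had an exact permutation p of 0.0857 (n = 4 each). It kept the plasmacytoid-like members, of which 0 of 43 were dividing, and was not made without them. Without the plasmacytoid-like members, Fyn, a kinase of the Src family, was among the 5 genes with the smallest p that were higher with ancrod, with 360, 283, 445 and 334 CPM in control and 736, 573, 616 and 601 in ancrod. Its ranges did not overlap, which goes with its choice by smallest p, and it did not pass (log2 difference 0.82 ± 0.17 SE, adjusted p = 0.607 by edgeR's quasi-likelihood test).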
